A study of Mus musculus with 7 samples.

Results

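The genes described here are the MHC class II genes of the mouse and Ciita, their transcriptional coactivator, in bone marrow-derived dendritic cells (BMDCs). They were chosen by name, as every gene of the deposited table with the symbol Ciita, Cd74, H2-Aa, H2-Ab1, H2-Eb1, H2-DMa, H2-DMb1, H2-DMb2, H2-Oa or H2-Ob, which gave 10 of 28666 genes. The study asked why many BMDCs stay immature after exposure to DON, a glutamine antagonist. Marrow of female C57BL/6 mice aged 6 to 8 weeks was cultured for 7 days with GM-CSF at 20 ng/mL and IL-4 at 10 ng/mL, and the cells then shared a Transwell with MC38, a mouse colon carcinoma line. Immature BMDCs (3 libraries) and mature BMDCs (4 libraries) were sorted by flow cytometry and their mRNA was sequenced. The paper's text describes co-culture with DON for 24 h, at 5 µM, for these cells, while 1 legend names DMSO or DON and the labels name only immature and mature. The markers used for this sort are not stated. Elsewhere in the paper mature DCs are those with both CD80 and CD86, and its antibody table lists no antibody to a class II protein. A general statement in the paper refers to independent biological experiments, and the labels do not say how it applies to the libraries, so p-values measure the spread between these libraries, which may be technical.

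MHC class II molecules are pairs of an alpha and a beta chain that carry peptides from ingested proteins to the surface of dendritic cells, B cells and macrophages, where helper T cells read them. The invariant chain, encoded by Cd74, holds new class II pairs in shape and guides them to endosomes, where proteases cut it down to a short peptide in the groove. H2-DM, a class II-like molecule, exchanges that peptide for others, and H2-O, a related pair, restrains H2-DM. Ciita does not bind DNA itself and acts on the class II, Cd74, H2-DM and H2-O promoters through the RFX, CREB and NF-Y factors seated there.

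Total counts were 61296014, 57359581 and 67973086 in immature replicates 1 to 3 and 62285010, 61817255, 54846746 and 60481142 in mature replicates 1 to 4. Mature replicate 3 stood apart. The median chi-square per gene of a pair of libraries, 0.455 where counting noise is the only difference, was 3.83 to 4.54 for immature pairs, 4.26 to 5.27 for pairs of mature replicates 1, 2 and 4, and 17.7 to 25.6 for pairs with mature replicate 3. Mature replicates 2, 3 and 4 also carried heart muscle transcripts. The 9 heart muscle genes of the marker list summed to 4.96, 5.86 and 5.55 CPM in immature replicates 1 to 3, to 27.6 CPM in mature replicate 1, of which Tnni3 alone was 23.98 CPM, and to 736, 867 and 762 CPM in mature replicates 2 to 4. What part of the class II counts of these libraries came with such RNA was not tested. CPM are counts scaled to a common library total with TMM normalization, the scale on which libraries were compared. FPKM, which also divide by transcript length, are used for ratios and for the order of the class II genes and Ciita by level. The most abundant gene of each marker list was named by CPM, and overlapping genes were also compared in CPM. CPM do not correct for transcript length, so such an order can differ in FPKM.

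Of the 10 genes, H2-Oa and H2-DMb2 rose in mature BMDCs by the study's criteria, a log2 fold change of 1 or more in size and an adjusted p under 0.05, and the classical chains H2-Eb1 and H2-Aa, H2-Ob and Ciita rose by less than that. H2-DMa and H2-DMb1, which encode chains of H2-DM, fell. Cd74 and H2-Ab1 did not pass the test. All 10 genes passed the filter on low counts and were tested with edgeR's quasi-likelihood test among 17461 genes, of which 4037 (23.1%) met the criteria, 2300 (13.2%) higher and 1737 (9.95%) lower in mature cells. Both criteria were met by 2 of the 10, both of them higher, so the share is close to that of all genes. None was called lower by edgeR, or by DESeq2 or limma, although 2 were lower at an unadjusted p under 0.05 and both remained lower after adjustment. By adjusted p alone 8 of the 10 differed, 6 higher and 2 lower, where 46.1% of all genes did. The mature and immature libraries did not overlap in CPM for 9 of the 10, where 52.1% of all genes did not overlap. The median log2 fold change was 0.59 over the 10 genes and 0.06 over all genes tested.

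**Figure D1:**
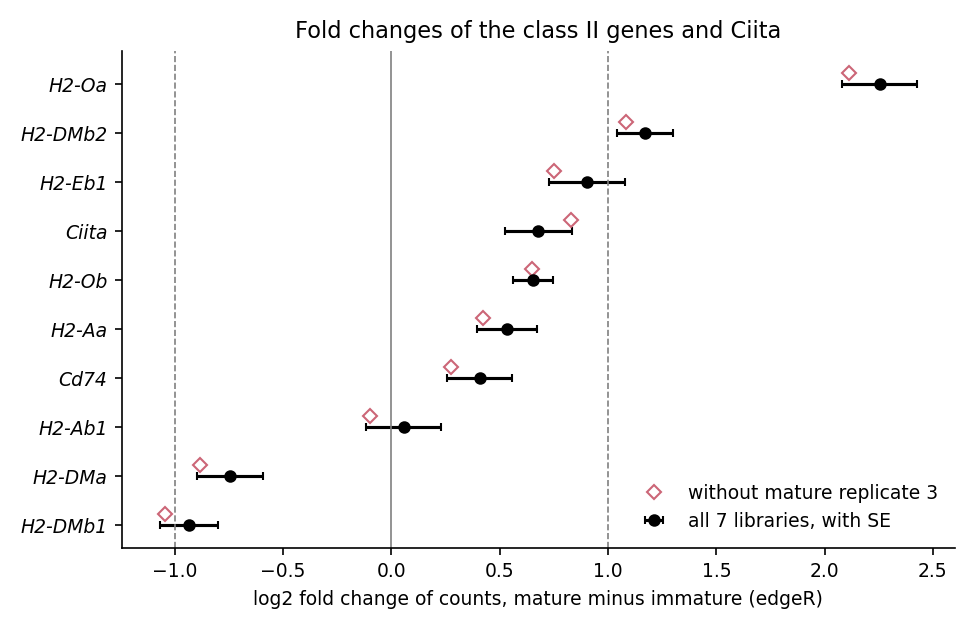
Log2 fold change of counts (mature minus immature, edgeR) of each gene on the horizontal axis, with all 7 libraries (black points, bars are standard errors) and without mature replicate 3 (open diamonds); dashed lines mark the criterion of 1 in both directions. H2-Oa at 2.25 and H2-DMb2 at 1.17 lie beyond the line, H2-Ab1 lies near 0, and H2-DMa and H2-DMb1 lie below 0 in both fits.

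Ciita (ENSMUSG00000022504, chromosome 16 from 10480059 to 10526426, as the deposited table gives it on GRCm38) was at 102, 88.6 and 100 CPM in immature replicates 1 to 3 and at 182, 166.5, 113 and 160.1 CPM in mature replicates 1 to 4. Every mature library lay above every immature one, but mature replicate 3 lay much nearer to the immature libraries than to the other mature ones. Immature cells averaged 97.1 ± 7.48 CPM (SD, n = 3) and mature cells 155.5 ± 29.5 CPM (SD, n = 4). The log2 fold change, 0.68 (SE 0.155, adjusted p = 0.00676 in edgeR), placed Ciita above 75.2% of all genes tested. Without mature replicate 3 it was 0.83 (adjusted p = 7.32e-06 in edgeR). In a bulk library, more cells with Ciita RNA and more Ciita RNA in each cell cannot be told apart, and this holds for each gene below.

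The classical chains split. H2-Ab1 and H2-Aa encode the beta and alpha chains of I-A, the class II molecule of C57BL/6 mice, and H2-Eb1 encodes the beta chain of I-E, whose alpha chain this strain does not make. H2-Ab1 (chromosome 17 from 34257689 to 34269419) was at 952, 947 and 1109 CPM in immature replicates 1 to 3 and at 1031, 834, 1406.5 and 899.6 CPM in mature replicates 1 to 4. Its groups overlapped, with mature replicates 2 and 4 under every immature library and mature replicate 3 above them all. The log2 fold change was 0.06 (SE 0.175, adjusted p = 0.819 in edgeR), and it was -0.10 (adjusted p = 0.383 in edgeR) without mature replicate 3. H2-Aa (chromosome 17 from 34282744 to 34287823) was at 1315, 1343 and 1407 CPM in immature and at 1961.5, 1682, 2485 and 1719 CPM in mature replicates. All 4 mature libraries were higher, and the log2 fold change was 0.53 (SE 0.14, adjusted p = 0.0134 in edgeR), or 0.42 (adjusted p = 0.000544 in edgeR) without mature replicate 3. H2-Aa lost its call when immature replicate 1 (0.51, adjusted p = 0.0533 in edgeR) or immature replicate 2 (0.53 on the log2 scale, adjusted p = 0.0514 in edgeR) was left out. H2-Eb1 (chromosome 17 from 34305867 to 34316674) moved furthest of these chains. It was at 881, 905 and 1003 CPM in immature and at 1719, 1437, 2343 and 1456 CPM in mature replicates, with no overlap. Its log2 fold change of 0.90 (SE 0.174, adjusted p = 0.00286 in edgeR) stood just under the criterion of 1, was 0.75 (adjusted p = 4.05e-05 in edgeR) without mature replicate 3, and passed the criterion, at 1.01, with upper quartile normalization.

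The proportions between the chains also differed. The FPKM ratio of H2-Aa to H2-Ab1 was 0.934, 0.959 and 0.858 in immature and 1.29, 1.36, 1.20 and 1.29 in mature replicates 1 to 4. In FPKM H2-Ab1 was thus the more abundant I-A transcript in each immature library and H2-Aa in each mature one. In CPM H2-Aa exceeded H2-Ab1 in every library, also in the immature ones (1315, 1343 and 1407 against 952, 947 and 1109 CPM). The change of order thus depends on the transcript lengths behind the FPKM, while the rise of the ratio does not. For H2-Eb1 to H2-Ab1 the ratio was 1.22, 1.26 and 1.20 in immature and 2.204, 2.28, 2.201 and 2.14 in mature replicates. Mature replicate 3, which stood apart in the CPM of each chain, lay among the other mature libraries in this ratio. No test was run on ratios, and none of these ratios overlapped between the groups.

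Cd74, the invariant chain, had the highest level of the 10 genes in every library. It was at 6419, 6548 and 6846 CPM in immature replicates 1 to 3 and at 8100, 7405, 11458 and 8052 CPM in mature replicates 1 to 4. The groups did not overlap, with mature replicate 3 far above the others. The log2 fold change of 0.41 (SE 0.15, adjusted p = 0.0542 in edgeR) missed the threshold. Without mature replicate 3 it was smaller, 0.27, with less spread, and passed it (adjusted p = 0.00458 in edgeR). Over the alternatives the adjusted p of Cd74 ranged from 0.00458 to 0.146. Set against the classical chains, Cd74 was lower in mature cells. Its FPKM ratio to the sum of H2-Aa, H2-Ab1 and H2-Eb1 was 3.27, 3.28 and 3.09 in immature and 2.68, 2.93, 2.83 and 3.091 in mature replicates. The groups did not overlap by a narrow margin, since immature replicate 3 (3.093) and mature replicate 4 (3.091) were nearly equal.

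The genes of H2-DM moved in opposite directions. H2-DMa, the alpha chain (chromosome 17 from 34119541 to 34139101), was at 277.6, 280.1 and 291.8 CPM in immature and at 160.1, 141, 224 and 150.9 CPM in mature replicates. All 4 mature libraries were lower, mature replicate 3 least so. The log2 fold change was -0.74 (SE 0.152, adjusted p = 0.0038 in edgeR), and -0.89 (adjusted p = 9.34e-07 in edgeR) without mature replicate 3. Mice have a pair of genes for the beta chain. H2-DMb1 (chromosome 17 from 34153072 to 34160230) was at 203, 201 and 214 CPM in immature and at 101, 90.5, 137 and 103 CPM in mature replicates, again lower in all 4. Its log2 fold change was -0.94 (SE 0.134, adjusted p = 0.000529 in edgeR), and it met both criteria, at -1.05 (adjusted p = 4.68e-07 in edgeR), without mature replicate 3. H2-DMb2 (chromosome 17 from 34143307 to 34151555) ran the other way, with 111, 107 and 124 CPM in immature and 253, 219.5, 314 and 241 CPM in mature replicates. All 4 mature libraries were higher, by a log2 fold change of 1.17 (SE 0.13, adjusted p = 0.000111 in edgeR), or 1.09 (adjusted p = 1.21e-06 in edgeR) without mature replicate 3.

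H2-DMb2 thus took the place of H2-DMb1 as the main beta chain transcript. Its share of their summed FPKM was 34.6%, 33.8% and 35.7% in immature and 70.6%, 70.02%, 68.8% and 69.3% in mature replicates, a mean of 34.7 ± 0.956% (SD, n = 3) against 69.7 ± 0.798% (SD, n = 4). When the counts of both genes were added up, an analysis chosen after seeing the data, the sum was at 314, 308.5 and 338 CPM in immature and at 354, 310, 451 and 344 CPM in mature replicates. These groups overlapped, and the log2 fold change was 0.19 (SE 0.127, adjusted p = 0.263 in edgeR), or 0.09 (adjusted p = 0.251 in edgeR) without mature replicate 3. The genes are paralogs and can share reads. Their longest annotated transcripts, of 1404 and 1483 bases, were identical at 1153 of 1218 aligned bases (94.7%), and 13.7% of the stretches of 100 bases of H2-DMb1 and 12.9% of those of H2-DMb2 occurred whole in the other gene. How the authors' counting split such reads is not given in the sources used here, so the exact size of each change is uncertain. The part of shared reads in the result was not tested.

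H2-Oa had the largest change of the 10 genes. It encodes the alpha chain of H2-O (chromosome 17 from 34092340 to 34095234) and was at 18.9, 19.9 and 17.1 CPM in immature and at 84.2, 74.6, 118 and 79 CPM in mature replicates. The lowest mature library was well above the highest immature one. The log2 fold change was 2.25 (SE 0.172, adjusted p = 1.16e-05 in edgeR), a 4.77-fold rise and higher than the signed value of 92.9% of all genes tested, and it was 2.11 (adjusted p = 3.24e-08 in edgeR) without mature replicate 3. The beta chain gene, H2-Ob (chromosome 17 from 34238903 to 34249309), was at 12.9, 12.5 and 13.5 CPM in immature and at 20.7, 18.9, 21.5 and 20.4 CPM in mature replicates. Its groups did not overlap either, and its log2 fold change was 0.65 (SE 0.094, adjusted p = 0.000546 in edgeR), or 0.65 (adjusted p = 0.000128 in edgeR) without mature replicate 3.

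The balance of the alpha chains of H2-O and H2-DM shifted toward H2-O. The FPKM ratio of H2-Oa to H2-DMa was 0.167, 0.174 and 0.144 in immature and 1.29, 1.29, 1.29 and 1.28 in mature replicates, with an SD of 0.00413 over the 4 mature libraries around a mean of 1.29. In FPKM H2-Oa was the minor transcript of this pair in each immature library and the major one in each mature library. In CPM it stayed under H2-DMa in every mature library too (84.2, 74.6, 118 and 79 against 160.1, 141, 224 and 150.9 CPM). Which of the pair was the major one in mature cells thus depends on the transcript lengths behind the FPKM, while the rise of the ratio does not. The beta chain ratio was also higher in mature cells, by less. H2-Ob stood at 0.0130, 0.0127 and 0.0126 of the summed FPKM of H2-DMb1 and H2-DMb2 in immature and at 0.0188, 0.0195, 0.0153 and 0.0190 in mature replicates, with mature replicate 3 the lowest mature value. H2-Ob transcripts were the rarest of the 10 genes in both groups, at 2.11 ± 0.0416 FPKM (SD, n = 3) in immature and 3.57 ± 0.115 FPKM (SD, n = 4) in mature cells.

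On the FPKM scale, which allows genes to be compared, the order in immature cells was Cd74 (3455 ± 59.0, SD, n = 3), H2-Eb1 (420 ± 20.2), H2-Ab1 (343 ± 23.3), H2-Aa (313 ± 5.71), H2-DMb1 (107.7 ± 1.17), H2-DMa (72.1 ± 0.722), H2-DMb2 (57.3 ± 2.98), H2-Oa (11.6 ± 1.14), Ciita (8.94 ± 0.602) and H2-Ob. Each gene of this order lay above the next in all 3 libraries and their ranges did not overlap. In mature cells the order was Cd74 (4901 ± 763, SD, n = 4), H2-Eb1 (840 ± 162), H2-Aa (486 ± 68.3), H2-Ab1 (381 ± 74.2), H2-DMb2 (138 ± 15.0), H2-DMb1 (60.3 ± 8.14), H2-Oa (59.4 ± 10.04), H2-DMa (46.1 ± 7.78), Ciita (15.5 ± 3.49) and H2-Ob. The ranges of H2-Aa and H2-Ab1, of H2-DMb1 and H2-Oa, and of H2-Oa and H2-DMa overlapped, although H2-Aa exceeded H2-Ab1 and H2-Oa exceeded H2-DMa within each of the 4 libraries. H2-DMb1 exceeded H2-Oa in 3 of 4. The 10 genes together made up 1.42%, 1.44% and 1.49% of the FPKM sum in immature replicates and 2.04%, 1.84%, 2.24% and 1.88% in mature replicates, and Cd74 was 71.5% to 72.5% of that in immature and 69.3% to 71.9% in mature libraries.

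**Figure D2:**
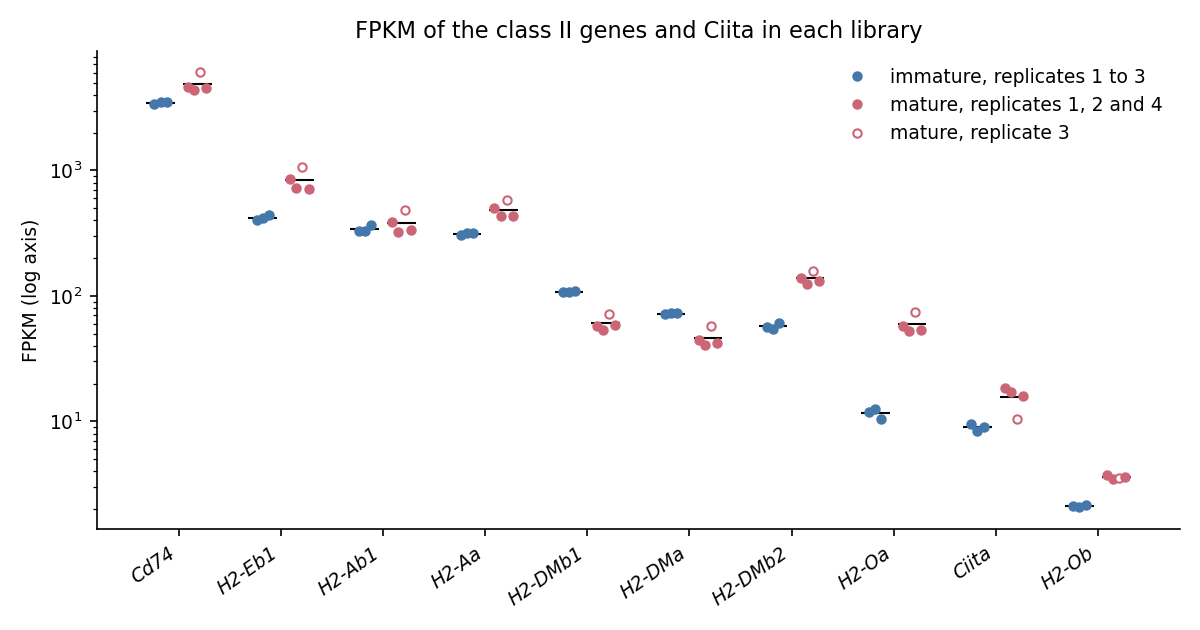
FPKM of the 10 genes (horizontal axis, ordered by the immature mean) in each library on a log axis; blue points are immature and red points mature libraries, mature replicate 3 is open, and lines are group means. Cd74 lies highest at 3387 to 6029 FPKM, H2-DMb1 and H2-DMb2 change places, and Ciita of mature replicate 3 (10.5 FPKM) lies near the immature libraries.

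Mature replicate 3 was the highest mature library for 9 of these genes in CPM and the lowest for Ciita, and over all genes its difference from the others went with transcript length. Tested genes with an annotated transcript length were sorted by their longest transcript into 5 classes of nearly equal size. In each class the median difference in log2 CPM between mature replicate 3 and the mean of the other mature libraries was taken. From the shortest to the longest class it was 0.49, 0.26, 0.06, -0.12 and -0.39. Ciita, with a transcript of 6007 bases in the longest class, differed by -0.58. H2-Oa, H2-Ab1 and Cd74, with 1340, 1212 and 1410 bases, differed by 0.57, 0.62 and 0.55, and H2-Eb1 (1669 bases) and H2-DMa (2005 bases) by 0.61 and 0.57. H2-Aa (3223 bases) differed by 0.48 and H2-Ob (2670 bases) by 0.11. All 9 genes other than Ciita lay above the median of their class, and Ciita lay below it. What lay behind the length trend of this library was not tested, so the fold change of each of the 10 genes is given with and without it.

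**Figure D3:**
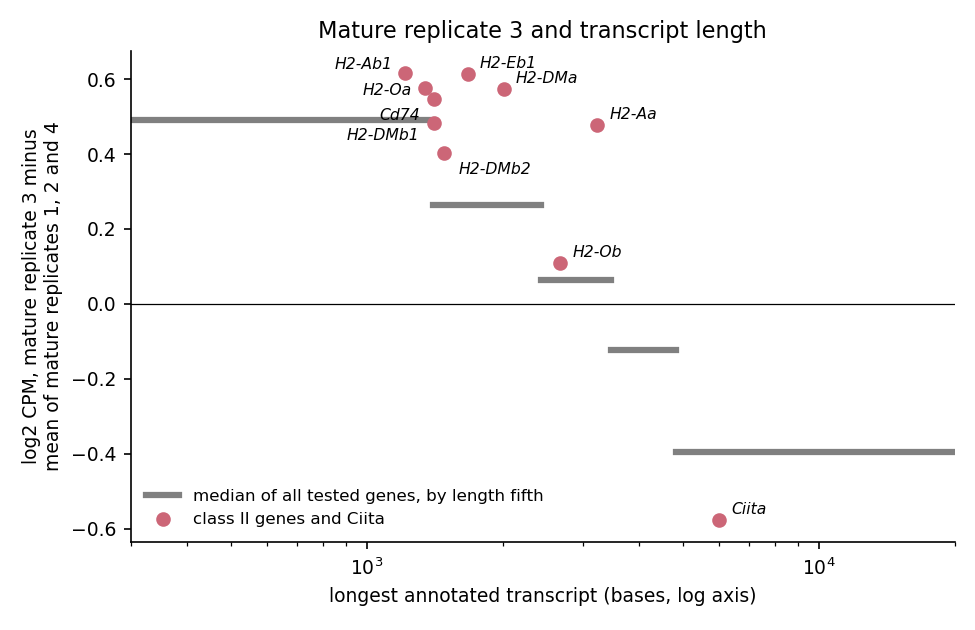
Difference in log2 CPM between mature replicate 3 and the mean of mature replicates 1, 2 and 4 (vertical axis) against the longest annotated transcript in bases (log axis). Grey lines are medians of tested genes with an annotated transcript length in 5 length classes, from 0.49 to -0.39. Red points are the 10 genes, with Ciita lowest at -0.58.

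Of the 10 genes, 8 lie within 224.3 kilobases of chromosome 17 (34092340 to 34316674, GRCm38), with 11 other genes of the table between the first and the last. The direction of change did not follow position, since H2-DMb2, which rose, lies between H2-DMa and H2-DMb1, which fell. Of the 11 neighbours 7 were tested. Psmb8 and Psmb9, subunits of the immunoproteasome, Tap1, of the peptide transporter for class I, and Gm15821 rose, none fell, so 4 of 7 differed where 46.1% of all genes did, and the median log2 fold change of the 7 was 0.52, against 0.06 for all genes. Gm15821 alone met both criteria (14.3% of the 7, against 23.1% of all genes), at 1.74, 1.80 and 0.976 CPM in immature and 5.55, 5.14, 4.33 and 4.48 CPM in mature replicates (log2 fold change 1.70, SE 0.255, adjusted p = 0.000689 in edgeR). The log2 fold changes of Psmb9, Psmb8 and Tap1 were 0.86, 0.61 and 0.29, and those of Tap2, Brd2 and Gm20513, which did not pass the test, were 0.26, 0.05 and 0.52. Gm20493, Gm20496, Gm50335 and Gm50336 had too few counts to be tested.

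**Figure D4:**
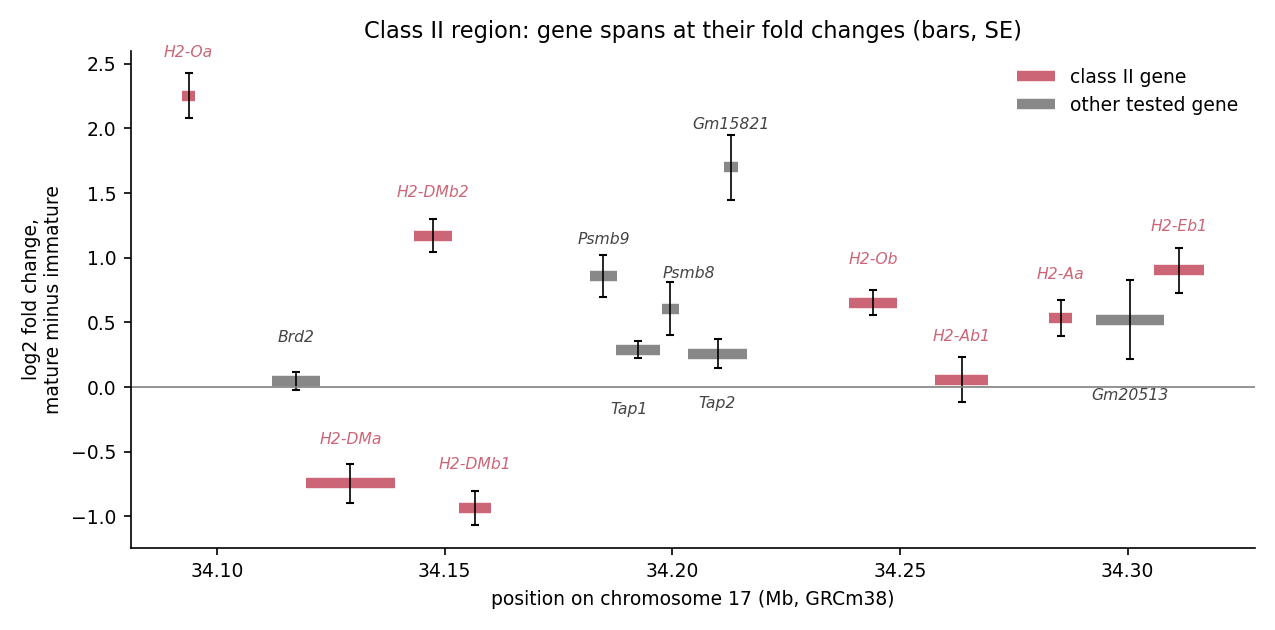
Class II region of chromosome 17, with each gene's span in Mb (GRCm38) on the horizontal axis drawn at its log2 fold change, mature minus immature; black bars are standard errors, red spans class II genes and grey spans other tested genes. H2-Oa lies highest at 2.25, and H2-DMa (-0.74) and H2-DMb1 (-0.94) lie below 0 on either side of H2-DMb2 (1.17).

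Some of these genes overlap others in the annotation. The library protocol marks strand, but the sources used here do not say whether the counting used it, so counts of such pairs may be mixed. Dexi, on the opposite strand, shares 329 exon bases with Ciita, and its own level was 15.6, 15.2 and 16.7 CPM in immature and 47.3, 48.4, 70.03 and 42.8 CPM in mature replicates. Its log2 fold change was 1.72 (SE 0.174, adjusted p = 6.29e-05 in edgeR), and unlike Ciita it was highest in mature replicate 3. Brd2 shares 360 exon bases with H2-DMa and did not pass the test. It was at 315, 286.5 and 287 CPM in immature and 308, 308, 295 and 314 CPM in mature replicates. In CPM this was more than H2-DMa in each mature library, but in FPKM Brd2 was lower in each (33.3 to 38.8 against 40.4 to 57.4). BC051537, opposite H2-Oa, shares 321 exon bases with it but had at most 1.46 CPM in any library, far under H2-Oa. With Cd74, Mir5107 shares 12 exon bases, at no more than 10.2 CPM in a library. Apart from the H2-DMb pair and H2-Oa with BC051537, where 10.6% of stretches of 100 bases occurred in the other gene, the longest transcript of none of the 10 genes shared such a stretch with an annotated transcript of another gene.

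Which genes ran most like Ciita was read from the root mean square difference of log2 CPM, each gene centred on its own mean over the 7 libraries, among 4167 genes with a mean FPKM of at least 10. The closest were Limd1 (0.05), Lima1 (0.053), Supt6 (0.062), Ddx17 (0.064) and Tbl1x (0.064). Limd1 was at 133, 123 and 133 CPM in immature and 233, 221, 159.8 and 222 CPM in mature replicates, so it too was higher in mature cells with mature replicate 3 in between. The log2 fold changes of these 5 genes ran from 0.62 to 0.71. For H2-Ab1 the closest were Tomm5 (0.047), Rnaset2b (0.051), Snrpb2 (0.061), Dctn3 (0.074) and the pseudogene Rpl5-ps1 (0.078), whose log2 fold changes ran from 0.02 to 0.08. Tomm5 was at 18.7, 18.3 and 22.5 CPM in immature and 19.1, 16.4, 29.1 and 17.5 CPM in mature replicates, again with mature replicate 3 highest. In each of these nearest genes mature replicate 3 lay outside the other mature libraries, and over all genes its difference went with transcript length. The part of that trend in the likeness was not tested, and likeness does not show a shared regulator. Copies of Rnaset2b and Rpl5-ps1 elsewhere in the genome can share their reads.

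Promoter sequences, which bear on genes that answer to a common coactivator yet moved in opposite directions, were matched by symbol for 7 of the 10 genes in RefSeq (GRCm38.p6), not for Ciita, Cd74 and H2-Ab1. The letters ATTGG, the core of the Y box that NF-Y recognises, and AACNGATG, close to the X box that RFX recognises, were searched on both strands in the 250 bases before the start of transcription. Both, and the spacing between AAC and ATTGG given next, were chosen after looking at these sequences, so the shares of all promoters are a description and no test. ATTGG occurred in all 7, and in 33.8% of 32851 promoters, and AACNGATG in H2-DMb1, H2-DMb2 and H2-Eb1, and in 1.98% of promoters. AAC followed after 23 to 29 bases by ATTGG occurred in H2-Aa, H2-DMb1, H2-DMb2, H2-Eb1, H2-Oa and H2-Ob, and in 3.46% of promoters. H2-DMa held ATTGG, but not on the strand of the gene within 100 bases of a start. Where matches on the other strand lay was not examined. The windows around the ATTGG nearest the start are shown 5′ to 3′ on the strand of the gene to compare the genes that rose with H2-DMb1, which fell, with ATTGG and AACNGATG in capitals, and H2-DMb1, whose window lies in an annotated exon, is cut to 30 bases. They lie at chr17:34092291-34092345 (+) for H2-Oa, chr17:34238803-34238857 (+) for H2-Ob, chr17:34287862-34287916 (-) for H2-Aa, chr17:34305763-34305817 (+) for H2-Eb1, chr17:34145114-34145168 (+) for H2-DMb2 and chr17:34153110-34153139 (+) for H2-DMb1.
H2-Oa: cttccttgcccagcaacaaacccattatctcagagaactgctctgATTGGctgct
H2-Ob: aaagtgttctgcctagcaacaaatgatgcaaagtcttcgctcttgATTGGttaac
H2-Aa: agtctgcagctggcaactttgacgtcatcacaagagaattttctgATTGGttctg
H2-Eb1: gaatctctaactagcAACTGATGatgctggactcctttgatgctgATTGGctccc
H2-DMb2: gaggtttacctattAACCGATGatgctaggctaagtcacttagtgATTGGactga
H2-DMb1: ctaggctgattcactcagtgATTGGtctga
The starts are those of RefSeq and can differ from the table's, so the windows of H2-DMb1 and H2-DMb2 lie inside the spans given above, and the last 6 bases of the H2-Oa window are annotated as exon. The ATTGG began 43, 57, 48, 59, 90 and 61 bases before the start in H2-Oa, H2-Ob, H2-Aa, H2-Eb1, H2-DMb2 and H2-DMb1. H2-DMb1 and H2-DMb2 both had AACNGATG with 23 bases between it and ATTGG, so these letters did not set the paralogs apart, and the 250 bases before their starts were identical at 174 of 209 aligned bases (83.3%). A match describes the letters and does not show that a factor binds.

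Among 17 class II transcription factors and cofactors, all tested, 7 rose, 3 fell and 7 did not pass the test, and 2 met both criteria (11.8%, against 23.1% of all genes). By adjusted p alone 10 of the 17 differed, where 46.1% of all genes did. The median log2 fold change was 0.26. Irf8, a factor of dendritic cell development, was at 106, 109 and 110.5 CPM in immature and 477, 448, 503 and 445 CPM in mature replicates, a log2 fold change of 2.11 (SE 0.082, adjusted p = 4.39e-07 in edgeR). Rfx5, the DNA-binding subunit of RFX, was at 17.8, 21.03 and 19.3 CPM in immature and 51.1, 52.6, 34.8 and 50.01 CPM in mature replicates, a log2 fold change of 1.28 (SE 0.155, adjusted p = 0.000193 in edgeR). All mature libraries were above the immature ones, with replicate 3 the lowest of them. Of the partners of Rfx5, Rfxank rose by less (log2 fold change 0.26) and Rfxap did not pass the test (-0.12). Of the NF-Y subunits, Nfya rose (0.52), Nfyc fell (-0.51) and Nfyb had a value of -0.09. Irf4 (0.99), Prdm1 (0.90), which encodes the repressor Blimp-1, and Irf1 (0.64) rose, and Spi1 (-0.83), the gene of PU.1, and Kat2b (-0.29) fell. Creb1 (0.31), Ctcf (-0.21), Crebbp (0.37) and Ep300 (-0.22) did not pass the test. Without mature replicate 3 or without immature replicate 1, 4 of the 17 met both criteria.

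Interferon gamma is the classical inducer of Ciita. Of the 9 genes of its input, 8 were tested, 4 rose, 1 fell and 3 did not pass, so 5 differed where 46.1% of all genes did, and 2 met both criteria (25%, against 23.1% of all genes), with a median log2 fold change of 0.42. Jak2, a kinase of the receptor, was at 580, 510 and 566 CPM in immature and 1708, 1683, 1233 and 1648 CPM in mature replicates, a log2 fold change of 1.51 (SE 0.131, adjusted p = 2.49e-05 in edgeR). Ifngr1, the ligand-binding receptor chain, was at 155.7, 156.9 and 162 CPM in immature and 85.6, 76.2, 74.4 and 79.6 CPM in mature replicates, and its log2 fold change of -1.003 (SE 0.076, adjusted p = 1.11e-05 in edgeR) stood at the criterion. Without mature replicate 2, 3 or 4, or immature replicate 3, the list held 1 call in place of 2. Socs1 (0.81), a feedback inhibitor, Usf1 (0.64) and Irf1 rose, while Ifngr2 (0.21) and Jak1 (-0.19) did not pass. Ifng itself was at 0 in every immature library and at most 0.132 CPM in a mature one.

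Each gene listed here for a protease that cuts the invariant chain or peptides fell. All 10 genes of invariant chain and peptide processing passed the test, as did 46.1% of all genes, 8 lower and 2 higher, and 6 met both criteria (60% against 23.1% of all genes), with a median log2 fold change of -0.72. Ctsd was at 9628, 9778 and 9721 CPM in immature and 1565, 1507, 2143 and 1793 CPM in mature replicates, a log2 fold change of -2.47 (SE 0.129, adjusted p = 1.4e-06 in edgeR). Ctsl (-2.42), Ctsb (-1.96) and Lgmn (-1.10), also endosomal proteases, met both criteria too. Ctss, the main protease for the invariant chain in dendritic cells, fell by less, from 2509, 2485 and 2684 CPM to 1277, 1261, 1677 and 1311 CPM in mature replicates (log2 fold change -0.89, SE 0.114, adjusted p = 0.000272 in edgeR), and so did Ctsz (-0.56), Ctsh (-0.39) and Sppl2a (-0.30), which clears the last membrane stub. Against them, Cst3, which encodes the protease inhibitor cystatin C, rose from 687, 735 and 817 CPM to 2483, 2247, 4043 and 2407 CPM (log2 fold change 1.91, SE 0.213, adjusted p = 0.000117 in edgeR), and Ifi30, a thiol reductase of endosomes, by 1.40 on the log2 scale (SE 0.174, adjusted p = 0.000225 in edgeR).

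Of 13 genes of class II traffic and turnover, 2 rose, 7 fell and 4 did not pass, so 9 differed where 46.1% of all genes did, 3 met both criteria (23.1%, as over all genes), and the median log2 fold change was -0.50. Marchf1, the ubiquitin ligase that sends class II for degradation, was at 53.7, 48.1 and 53.6 CPM in immature and 7.71, 10.6, 8.81 and 9.69 CPM in mature replicates (log2 fold change -2.49, SE 0.122, adjusted p = 1.08e-06 in edgeR). Cd83, which opposes that ligase, was at 93.8, 96.1 and 89.96 CPM in immature and 734, 724, 839.8 and 762 CPM in mature replicates (log2 fold change 3.04, SE 0.091, adjusted p = 1.83e-07 in edgeR). Neither pair of groups overlapped. Cd81, a tetraspanin, met both criteria as well (-1.69), and Cd9, another, stood at the edge (-0.999). Rab7 (-0.65), Marchf8 (-0.60), Arl8b (-0.50) and Arl14ep (-0.38) also fell, Tmem127 rose (0.78), and Cd63 (-0.52), Rilp (0.03), Hgs (0.14) and Tsg101 (0.25) did not pass the test.

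The class I pathway presents peptides from inside the cell. None of its 14 genes met both criteria in edgeR or DESeq2, where 23.1% of all genes did in edgeR. By adjusted p 4 rose and 2 fell, as many as at an unadjusted p under 0.05, so 6 of 14 differed where 46.1% of all genes did, and the median log2 fold change was 0.12. H2-K1 (0.28), H2-D1 (0.05) and B2m (0.04), the class I chains, did not pass the test, nor did Nlrc5 (0.17), the class I counterpart of Ciita, at 114, 102 and 97.5 CPM in immature and 127, 135, 71.8 and 137 CPM in mature replicates. Psmb9 (0.86), Tapbpl (0.75), Psmb8 (0.61) and Tap1 (0.29) rose. Calr (-0.75) and Pdia3 (-0.57), of the loading complex, fell. Tap2 (0.26), Tapbp (0.06), Erap1 (-0.14) and Psmb10 (-0.07) did not pass.

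Markers of cell types were read in the same libraries, where 46.1% of all genes differed by adjusted p and 23.1% met both criteria. Of 7 dendritic cell genes, 4 rose and 3 fell. Ccr7 was the most abundant in mature cells, at 203, 203 and 200 CPM in immature and 2362, 2310.2, 2873.5 and 2378 CPM in mature replicates. The list summed to 1855, 1760 and 1935 CPM in immature and 3701.5, 3664, 3986 and 3796 CPM in mature replicates. Without Ccr7 the sum was lower in every mature library than in every immature one. Itgax, the gene of CD11c and the most abundant in immature cells, was at 1405, 1288 and 1464 CPM in immature and 1053, 1093, 874 and 1144 CPM in mature replicates, and fell (log2 fold change -0.41). Zbtb46 (2.05), Flt3 (3.77) and Dpp4 (1.79) rose with Ccr7, and Clec10a (-2.46) and Cd209a (-3.54) fell. Of 8 macrophage genes all fell, and their sum was 13404, 13400.4 and 13995 CPM in immature and 1687, 1572, 2142 and 1936 CPM in mature replicates, most of it Lyz2 (11692, 11792 and 12312 CPM against 1326, 1205.5, 1718 and 1518 CPM). The groups therefore differed in macrophage genes as well as in class II genes, and the part of that difference in the fold changes above was not tested. B cells express H2-O, class II and Ciita, and their markers were near 0. The 7 B cell genes summed to 0.443, 0.252 and 0.217 CPM in immature and 0.788, 1.31, 1.36 and 1.20 CPM in mature replicates, none exceeded 0.643 CPM in a library, and Cd79b was the most abundant by its mean over the 7 libraries. Ms4a1 and Cr2 had no count in the immature libraries.

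The 5 T and NK cell genes found in the table summed to 2.68, 2.46 and 2.28 CPM in immature and 4.55, 3.72, 5.54 and 3.44 CPM in mature replicates, with Cd8a, which some dendritic cells express, most abundant and alone called higher. The 6 neutrophil genes summed to 0.944 to 3.02 CPM, led by S100a8, which was called lower. Of 5 mast cell and basophil genes, 4 stayed under 1 CPM and Kit, called higher, gave nearly all of the 5.22 to 7.13 CPM in immature and 30.9 to 42.3 CPM in mature libraries. Plasmacytoid dendritic cell genes (4 in the table) summed to 12.9 to 15.3 CPM in immature and 22 to 37.7 CPM in mature libraries. In CPM Cox6a2 was most abundant in immature libraries (10.8, 11.04 and 9.99 CPM, against 1.99, 11.4, 13.1 and 11.2 CPM in mature replicates 1 to 4). Pacsin1, which was called higher, had the most CPM in mature libraries, but the mean FPKM there was 13.04 for Cox6a2 and 2.29 for Pacsin1. The highest sum, in mature replicate 2, held 10.2 CPM of Klk1. The 6 epithelial genes, listed as markers for MC38 cells, summed to 69.9 to 77.4 CPM in immature and 59.4 to 69.6 CPM in mature libraries. Most of each sum was Cdh1, and Epcam alone was called, higher in mature cells. Whether the Cdh1 RNA came from MC38 cells or from the BMDCs was not tested. No gene of any marker list found in the table was at 0 in every library. The 9 heart muscle genes were all called higher. In CPM Myh6 led them in mature replicates 2 to 4, and it was at 0.869, 1.06 and 0.713 CPM in immature and 0.5, 256, 295 and 268 CPM in mature replicates. In FPKM Mb (71.1, 69.8 and 70.9) exceeded Myh6 (37.5, 38.8 and 38.1) in mature replicates 2 to 4.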

How the data were processed

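Libraries were made from poly(A) RNA of sorted BMDCs and grouped by the sample labels. Counts of each gene in each library and FPKM were deposited by the authors, whose processing notes name cutadapt 1.9, HISAT2 2.2.1, StringTie 2.1.6, DESeq2 and edgeR, and the build mm9. The coordinates are those of GRCm38, where 24940 of the 28588 gene IDs found in GENCODE M21, and 7 of the 10 members, have the same start and end.

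The members and the gene lists were chosen with earlier results of these data known. The fit on counts used edgeR 4.0.16 in R 4.3.3 (filterByExpr, TMM, quasi-likelihood test, all 7 libraries, no covariate), and p-values were adjusted by Benjamini-Hochberg over 17461 genes. The standard error is the log2 fold change divided by the square root of F. Lists were described by counts and medians. Named genes are the 10 members, the genes of each list, the 5 genes nearest to Ciita and to H2-Ab1, and of each marker list the most abundant gene and those at 0. The lists were class II transcription factors, interferon gamma input, invariant chain and peptide processing, class II traffic and turnover, class I and peptide loading, region neighbours and 9 marker lists. Dexi, BC051537, Mir5107 and genes named beyond this rule were chosen after their values were seen. Ncr1, Elane and Siglech were not found among the gene names.

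Alternatives were DESeq2 1.42.0, upper quartile normalization, library totals, no filter, an FPKM of at least 5 in 3 libraries, limma 3.58.1 on log2(FPKM + 1) and log2(FPKM + 0.1), adjusted p alone, each library left out, and the replicate number as a block. The fits were tested on simulated data, where changes of genes with few counts were often missed, and the pass mark was set on genes with more counts after a first run. Transcripts were those of GENCODE M21, and descriptions used Python 3.11.15 with pandas 2.3.3 and Biopython 1.88. Depth covers counting error only, since reads copied from 1 molecule are counted separately.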

Additional observations from a re-analysis of the deposited data

Results flagged for a closer look

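For groups of 4 libraries, the gap of the highest or lowest library to its nearest neighbour was compared with the group's whole range. Of 43 values examined in the mature libraries, 5 stood apart by this measure, all of them in mature replicate 3, where chance alone gives about 1 in 20. The 43 were not all values of this report, and others not among them also stand apart by this measure. Examples are the heart muscle sum of mature replicate 1 (27.6 CPM), Klk1 of mature replicate 2 (10.2 CPM) and Ctss and Ccr7 of mature replicate 3. The sum of FPKM was 381706.6 in mature replicate 3, against 329246.7 to 337706.4 in the other mature libraries. The FPKM ratio of H2-Ob to H2-DMb1 plus H2-DMb2 was 0.0153 there, lower than in the other mature libraries. Rfx5 was lowest at 34.8 CPM and Jak2 at 1233.3 CPM, and Cst3 was highest at 4042.6 CPM. For the ratio and these 3 genes, mature replicate 3 lay on the same side of all immature libraries as the other mature libraries did. The FPKM sums of the other mature libraries overlapped those of the immature libraries. What set these values apart was not tested.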

How the results depend on the processing

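The direction of the log2 fold change was the same under all alternatives run for 9 of the 10 genes. H2-Ab1 was the exception, at -0.097 without mature replicate 3 and up to 0.156 with another library left out, and it did not pass the test under any of them. Upper quartile normalization moved the median of all genes from 0.055 to 0.165 and library totals to 0.159. Over the 27808 genes fitted without the filter it was 0.171, and 0.18 with DESeq2. H2-Ob could not be fitted with an FPKM of at least 5. Cd74 passed the test under 8 of 15 alternatives. H2-Aa lost its side of the threshold without immature replicate 1 or 2. Adjusted p ranged from 7.32e-06 to 0.0375 for Ciita, 0.000454 to 0.0533 for H2-Aa, 0.383 to 0.968 for H2-Ab1, 4.56e-07 to 0.0167 for H2-Eb1, 9.34e-07 to 0.0186 for H2-DMa, 2.01e-09 to 0.0039 for H2-DMb1, 4.37e-17 to 0.00133 for H2-DMb2, 1.89e-40 to 0.00033 for H2-Oa and 1.08e-08 to 0.00894 for H2-Ob.

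Genes called higher numbered 734 with an FPKM of at least 5, 946 with limma on log2(FPKM + 1), 1390 with log2(FPKM + 0.1) and 4047 by adjusted p alone, and genes called lower 791 and 822 for the first and second of these and 4006 by adjusted p alone. Of the 10 genes, 6 were called higher and 2 lower by adjusted p alone, and 1 was higher with H2-DMb1 and H2-DMb2 summed, which leaves 1 gene fewer and was chosen after seeing the data, as was the summed fit without mature replicate 3. Leaving out a library gave 0 to 1 called lower. For transcription factors the count was 4 with upper quartile normalization and with library totals, 10 by adjusted p alone and 2 to 4 without 1 library. For interferon gamma input it was 1 with DESeq2, upper quartile normalization, library totals, no filter, an FPKM of at least 5 and both limma fits, 5 by adjusted p alone and 1 to 2 without 1 library. By adjusted p alone the counts were 10 for peptide processing, 9 for traffic, 6 for class I and 4 for neighbours, where the FPKM filter left 0. Causes were not tested except where the criterion or the number of genes itself changed.

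Same-numbered libraries did not deviate together (correlations of 0.029, -0.001 and 0.014), and pairs with different numbers ran from -0.048 to 0.036. The check thus showed no pairing by number. With so few pairs, and with mature replicate 3 apart from the others, it cannot settle whether libraries of the same number share an origin. With a replicate block, 1936 genes were called higher and 1680 lower, 2 and 0 of the 10 genes, and no gene of the 10 changed its side of the adjusted p threshold.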

Other observations

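Further class II genes of the table, chosen after their values were seen, lay beyond H2-Eb1 on chromosome 17. H2-Eb2 (34325665 to 34341412), a second I-E beta gene, had 55, 152 and 162 counts in immature and 855, 572, 482 and 355 counts in mature replicates, with no overlap (log2 fold change 2.14, standard error 0.409, edgeR adjusted p = 0.00268). Its highest FPKM was 3.68, against at least 402 for H2-Eb1.

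H2-Ea (34341959 to 34344645) encodes the I-E alpha chain, which C57BL/6 mice do not make because of a deletion in this gene. It had 0 counts in immature replicates 1 to 3 and in mature replicate 1, and 63, 56 and 36 counts in mature replicates 2 to 4. These are the libraries in which the 9 heart muscle genes summed to 736, 867 and 762 CPM, against 27.6 CPM in mature replicate 1. Its edgeR adjusted p was 0.0235, and no fold change is given because 4 libraries were at 0. Reads of H2-Ea in mature replicates 2 to 4 are at odds with C57BL/6, the strain given for the donors. The origin of these reads, and whether other class II reads of the same libraries share it, was not tested.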
